A study of Mus musculus with 13 samples.

Results

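Microglia of 5xFAD mice that had received a circular RNA vector were compared with microglia of wild type mice that had received an EGFP vector. The comparison used 7 of the 13 libraries of the series, 4 from circRNA-treated 5xFAD mice and 3 from wild type mice, chosen by their labels alone. The 5xFAD mouse models Alzheimer's disease, with neurons that make mutant human APP under the Thy1 promoter. The vector in all of these groups was AAV PHP.eB, an adeno-associated virus whose capsid lets it pass from blood to brain. In wild type (n = 3) and in a further 5xFAD group (n = 2) it carried EGFP, and in the treated 5xFAD group (n = 4) it carried circPOLR2A, which the series title describes as double-stranded circular RNA given to neurons. The treatment labels of the treated libraries read circPOLR2A(9,10), (9,11), (9,12) and (9,13) for replicates 1 to 4, whereas the design text names (9,10) for all 4, so whether they received 1 construct is not settled. No wild type group received the circRNA, so the treated group differs from wild type in genotype and in vector at once. A further group, 5xFAD with PKR knockout (n = 4), entered the model for its share of the replicate spread and is not described. Age, sex, dose, time after injection and the way the cells were isolated are not given in the sources used here, and the labels do not say that replicates were separate mice, so p-values measure the spread between libraries.

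Microglia are the resident macrophages of the brain. Near amyloid they lower homeostatic genes such as P2ry12 and Tmem119 and, through the receptor TREM2 and its adaptor TYROBP, raise a disease-associated programme of lipid handling, lysosomal and phagocytic genes. PKR (Eif2ak2) is a kinase that double-stranded RNA activates. It phosphorylates eIF2alpha and so lowers translation, it belongs to the interferon-stimulated genes, and short double-stranded circular RNAs are known to bind and inhibit it.

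Expression was given as FPKM, a fragment count divided by gene length and by the total of the library. Differences are on the log2(FPKM + 1) scale, which understates the change of genes near or below 1 FPKM. A gene passed when the Benjamini-Hochberg adjusted p of limma was under 0.05, over the 10817 genes that averaged 1 FPKM or more across the 13 libraries. A gene was called within 1.5-fold of wild type when the whole 95% interval of its difference lay inside 1.5-fold, a narrower statement than not passing. The pathways were 33 gene lists, with 690 of their 756 genes tested. The low FPKM values implied 94.5 to 101 M (mega) counted units in the wild type libraries and 90.4 to 106 M in the circRNA libraries. Of these units 49.2% to 53.5% and 54.1% to 60.7% fell in the 19389 genes of the whole table that had an exon length. The rest lay outside these genes.

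One wild type library stood apart. Wild type replicate 3 lay at 17.2 on the second principal component (18.1% of the variance) against -18.2 and -22.1 for the other wild type libraries, and differed from them by a chi-square per degree of freedom of 367 and 444, against 47.1 between those. Summed markers of microglia, at 4826, 4977 and 3071 FPKM in the wild type libraries, were lowest in it, and those of oligodendrocytes (401, 362 and 1610.0 FPKM), astrocytes (122, 96.8 and 330.2 FPKM) and neurons (29.3, 23.3 and 89.1 FPKM) were highest. In the circRNA libraries the sums were 4580.4, 5522, 5863 and 3924 FPKM for microglia, 778, 314, 323 and 813 FPKM for oligodendrocytes, 256, 136, 248 and 173 FPKM for astrocytes and 44.5, 20.99, 36.7 and 59.2 FPKM for neurons, inside or near the wild type range for each. None of the tested oligodendrocyte (7) or neuron (5) markers passed, and 1 of 7 astrocyte markers did, Gfap, which is raised in reactive astrocytes (1.84). The microglial sum was the highest of these 4 in every library. Monocyte markers (6 of 6) and T and NK cell markers (7 of 7 in the table) stayed below 1 FPKM in all 7 libraries.

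**Figure D1:**
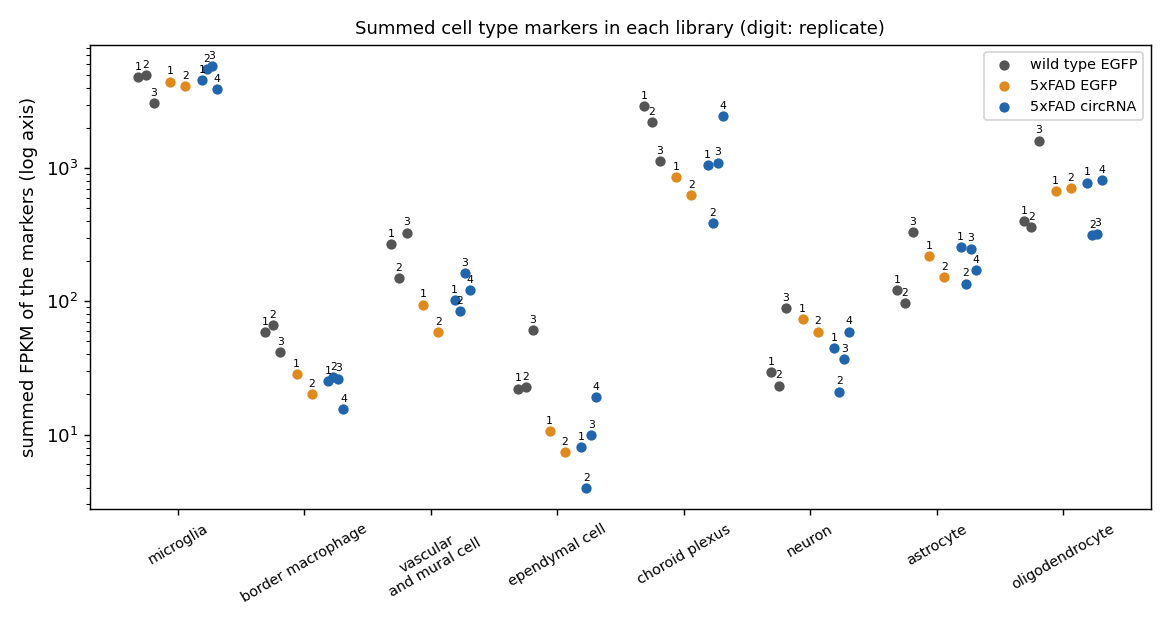
Summed FPKM of the markers of 8 cell types (log axis) in each library, by group, with the replicate number at each point. Border macrophage markers lie at 41.9 to 66.3 in wild type and at 15.5 to 27.0 in the circRNA libraries, with no overlap, whereas neuron, astrocyte and oligodendrocyte sums overlap, with wild type replicate 3 the highest of all.

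In the circRNA libraries 2796 genes differed from wild type, 1925 higher (17.8% of the genes tested) and 871 lower (8.05%). At least 2-fold differences were mostly increases, with 354 genes higher and 71 lower. The groups did not overlap for 3049 genes (28.2%). For 7671 genes (70.9%) the interval lay within 1.5-fold of wild type, and the median of all genes was 0.02. The split between higher and lower depended on the scaling. The main values gave 68.8% higher, and it was 54.3% with median-ratio scaling, 51.2% with quantile normalization, 52.6% with the trend on gene length removed, 35.8% with voom on recovered counts and 17.5% when each library was rescaled to the same FPKM sum. Rescaling moved the median of all genes to -0.20 and voom moved it to -0.13, so a small difference shared by many genes has no settled sign. With the genes below a mean of 5 FPKM left out 1754 genes passed, and with the spread estimated from these groups alone 1725 passed.

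The genes raised most were those of amyloid-associated microglia. Cst7, an inhibitor of cysteine cathepsins (chromosome 2, 150570415 to 150578944, plus strand, GRCm38), was at 3.05, 3.00 and 2.97 FPKM in the wild type libraries and at 599, 579, 783 and 481 FPKM with circRNA. Every treated library lay far above every wild type library, with a difference of 7.23 (SE 0.14, limma adjusted p = 1.34e-11). Spp1, the secreted phosphoprotein osteopontin (chromosome 5, 104435118 to 104441050, plus strand), was at 3.31, 2.85 and 2.36 FPKM in wild type and at 107, 122, 241 and 89.8 FPKM with circRNA, a difference of 5.10 (SE 0.31, limma adjusted p = 2.80e-07). Gpnmb, a transmembrane glycoprotein of stressed lysosomes (chromosome 6, 49036546 to 49070929, plus strand), was at 0.107, 0.0998 and 0.148 FPKM in wild type and at 28.8, 31.0, 47.5 and 29.5 FPKM with circRNA, 4.95 (SE 0.18, limma adjusted p = 4.76e-09). These genes were low in every wild type library and high in every treated library. The other genes among the 10 raised most were the integrin Itgax (4.77), lipoprotein lipase Lpl (4.31), Baiap2l2 (4.24), Mamdc2 (4.14), Cox6a2, a muscle-type subunit of cytochrome c oxidase (3.77), and the growth factors Csf1 (3.38) and Igf1 (3.35). Gpnmb, Lpl, Baiap2l2, Mamdc2, Cox6a2 and Igf1 were below 1 FPKM in every wild type library. They reached the minimum of 1 FPKM through the 5xFAD libraries, so their direction follows in part from the filter.

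Among the 10 genes lowered most, several belong to cells other than microglia. Rgs5 (-1.32), Acta2 (-1.35) and Myl9 (-1.31) are genes of pericytes and smooth muscle, Tmem212 (-1.63) and Ccdc153 (-1.46) are genes of ciliated ependymal cells, and Cd209a (-1.31) is a lectin of dendritic cells and border macrophages. Nnat, an imprinted gene of neurons and ependyma, was at -1.32. Crybb1 (-1.58) and Gpr165 (-1.25) are expressed by microglia, and Eps8l1 was at -1.48. Tmem212 was at 3.90, 4.86 and 13.9 FPKM in wild type, highest in replicate 3, and at 1.22, 0.581, 1.42 and 3.17 FPKM with circRNA, and its adjusted p in limma without wild type replicate 3 was 0.018.

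**Figure D2:**
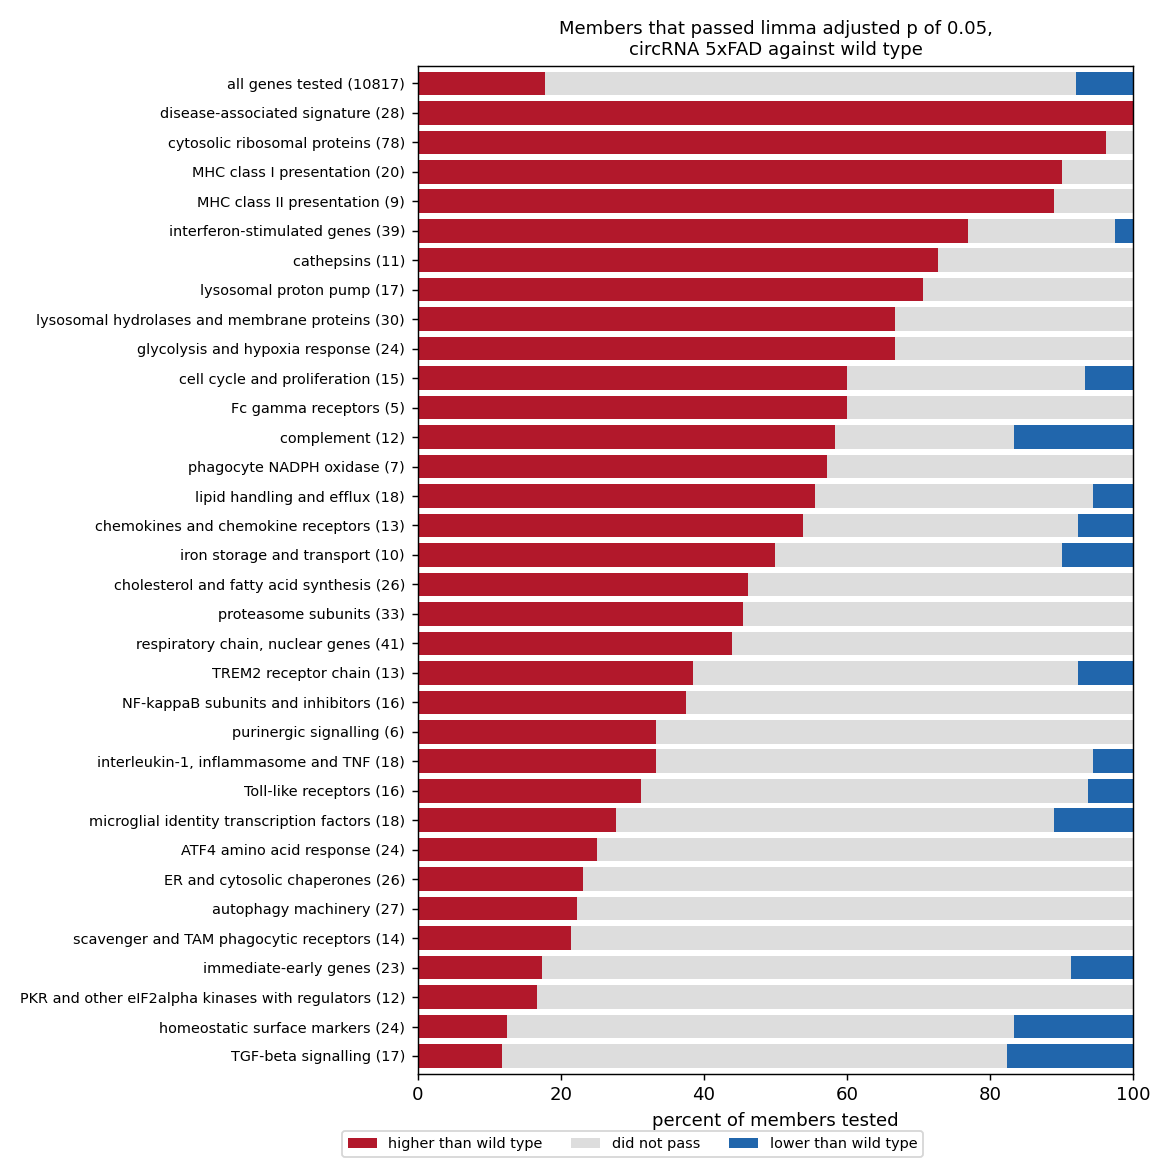
Share of the tested members of each pathway list (horizontal axis, percent) that were higher, lower or did not pass against wild type in the circRNA libraries, limma adjusted p of 0.05, with all genes tested on top. The disease-associated signature, with 28 of 28 higher, and the ribosomal protein genes, with 75 of 78 higher, stand at one end, and TGF-beta signalling, with 2 of 17 higher and 3 lower, at the other.

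The disease-associated programme remained raised throughout. Of the disease-associated signature, 28 of 28 members were higher than wild type, with a median of 2.39 against 0.02 for all genes, and none lay within 1.5-fold of wild type. In 5xFAD with EGFP, against the same wild type libraries, 827 genes (7.65%) were higher and 687 (6.35%) lower, among them the 28 members, higher with a median of 2.21. The count over all genes rests on both EGFP libraries, since 666 genes passed without EGFP replicate 1 and 566 without replicate 2. The signature comes from amyloid models, and its members were listed with earlier results of these libraries known, so its count is a description.

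The receptor chain above it was raised in part. Trem2, the lipid and lipoprotein receptor (chromosome 17, 48346401 to 48354147, plus strand), was at 79.4, 86.9 and 52.9 FPKM in wild type and at 174, 197, 262 and 158 FPKM with circRNA, 1.43 (SE 0.19, limma adjusted p = 1.67e-04). Tyrobp, the adaptor that carries its signal, was at 239.5, 246 and 138 FPKM in wild type and at 735, 800.1, 825 and 531 FPKM with circRNA, 1.82 (SE 0.21, limma adjusted p = 6.30e-05). The groups did not overlap for either gene. The second adaptor Hcst (0.92), which pairs with PI3 kinase, and the phosphatase Ptpn6 (1.03) rose as well, and Dok3 (-1.21), an adaptor that restrains TYROBP signals, fell. Of the 13 tested members 5 rose (38.5%, against 17.8% of all genes) and 7 were within 1.5-fold of wild type (53.8%, against 70.9%), among them the signalling genes Plcg2 (0.00) and Vav1 (0.02).

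Genes of lipid handling rose, and so did part of the genes of lipid synthesis. Apoe, the lipoprotein that carries cholesterol between brain cells (chromosome 7, 19696109 to 19699188, minus strand), was at 315, 304 and 353 FPKM in wild type, at 2463, 2386, 2554 and 2214 FPKM with circRNA and at 1684 and 2027 FPKM in 5xFAD with EGFP. The circRNA libraries lay above all others, 2.89 (SE 0.17, limma adjusted p = 1.87e-07) against wild type and 0.38 (95% interval -0.04 to 0.80, limma adjusted p = 0.739) against EGFP, where the difference did not pass. Of the lipid handling and efflux genes 10 of 18 rose (55.6%, against 17.8% of all genes) and 1 fell (median 0.53), including cholesterol 25-hydroxylase Ch25h (3.14), the fatty acid carrier Fabp3 (2.38) and the lysosomal cholesterol carrier Npc2 (1.39). Lrp1 (0.12), a receptor for APOE, Npc1 (0.16) and Acsl1 (-0.08) were within 1.5-fold. Of the cholesterol and fatty acid synthesis genes 12 of 26 rose (46.2%, median 0.29), led by acetyl-CoA carboxylase Acaca (1.81), the sterol sensor Insig1 (0.81), Cyp51 (0.67) and Dhcr7 (0.66), whereas Sqle (0.06), Lss (0.01) and Nsdhl (0.03), which act on squalene and on early sterols, were within 1.5-fold. The synthesis count rose to 18 with the marker covariate and 17 with arrayWeights or without wild type replicate 3, and fell to 7 with the spread of these groups alone, to 6 under rescaling and to 4 with the minimum of 5 FPKM.

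The lysosome was raised from its proteases to its proton pump. Cathepsin D, Ctsd, an aspartic protease (chromosome 7, 142375911 to 142388038, minus strand), was at 858, 949 and 563 FPKM in wild type and at 2592, 3019, 3368 and 2099 FPKM with circRNA, 1.82 (SE 0.22, limma adjusted p = 7.81e-05). Wild type replicate 3 was the lowest library, and the groups did not overlap. Of the cathepsins 8 of 11 rose (72.7%, against 17.8% of all genes, median 1.10), with Ctse (3.01), Ctsl (1.84), Ctsb (1.81) and Ctsz (1.73), and Ctso (0.06) was within 1.5-fold. Of the hydrolases and membrane proteins 20 of 30 rose (66.7%, median 0.65), with the scavenger membrane protein Cd68 (1.81), beta-glucuronidase Gusb (1.60) and the glycolipid hydrolases Hexa (1.45), Glb1 (1.37) and Gla (1.35). Tfeb (-0.02), the transcription factor of lysosomal genes, the channel Mcoln1 (0.05) and sphingomyelinase Smpd1 (-0.02) were within 1.5-fold. The V-ATPase, which acidifies the lysosome, had 12 of 17 subunits higher (70.6%, against 17.8% of all genes, median 0.47).

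The pump subunit with the largest difference was Atp6v0d2. This subunit, a macrophage and osteoclast isoform of the membrane sector, was at 0.0156, 0.0386 and 0 FPKM in wild type and at 5.05, 3.94, 6.27 and 3.32 FPKM with circRNA, a difference of 2.44 (SE 0.17, limma adjusted p = 9.56e-07). It reached the minimum of 1 FPKM only through the 5xFAD libraries, so its direction follows in part from the filter. The ubiquitous subunits Atp6v1a (0.79), Atp6v1c1 (0.76) and Atp6v0c (0.73) rose by less, and Atp6v1h (0.00) and Tcirg1 (0.02) were within 1.5-fold.

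Genes of glycolysis and of the hypoxia response were higher than wild type. Hif1a, the oxygen-regulated subunit of HIF (chromosome 12, 73901375 to 73947530, plus strand), was at 12.3, 11.9 and 9.20 FPKM in wild type and at 57.6, 58.4, 60.7 and 49.6 FPKM with circRNA, 2.25 (SE 0.14, limma adjusted p = 2.24e-07). Its target and inhibitor Egln3 (2.67), a prolyl hydroxylase, the glycolytic enzymes Pkm (1.26) and Tpi1 (1.26) and the lactate exporter Slc16a3 (1.16) rose with it, and 16 of 24 members (66.7%, against 17.8% of all genes) passed as higher (median 0.75). Hexokinases Hk1 (-0.16) and Hk3 (0.13) were within 1.5-fold of wild type. Of the nuclear genes of the respiratory chain 18 of 41 (43.9%) passed, all higher, with a median of 0.25, and 28 lay within 1.5-fold (68.3%, against 70.9% of all genes). The higher count fell to 6 without wild type replicate 2, 10 without circRNA replicate 1, 9 without circRNA replicate 3, 7 with the length trend removed and 6 with voom. Under rescaling 4 were higher and 8 lower, so the direction has no settled sign.

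Messages of the cytosolic ribosome rose together. 75 of 78 ribosomal protein genes were higher (96.2%, against 17.8% of all genes), with a median of 0.98. Rplp1, an acidic protein of the ribosomal stalk, was at 179, 195 and 228 FPKM in wild type and at 403, 448, 507 and 367 FPKM with circRNA, 1.09 (SE 0.14, limma adjusted p = 1.28e-04), and the groups did not overlap. Rpl21 (1.96) and Rpl19 (1.51) were among the largest differences, and Rps13 (0.14) was within 1.5-fold. These genes are short and have many processed copies in the genome, so reads may be shared with copies. Short genes were higher in general, with medians of 0.23 for 276 other genes under 1 kb and -0.01 for 6042 genes over 4 kb, and with the trend on length removed 74 ribosomal protein genes were still higher. In 5xFAD with EGFP, 62 were higher than the same wild type libraries (79.5%, against 7.65% of all genes), with a median of 0.74.

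Antigen presentation was raised in both classes. H2-D1, a classical class I heavy chain (chromosome 17, 35262730 to 35267499, plus strand), was at 73.6, 72.2 and 58.2 FPKM in wild type and at 213, 262, 284 and 254 FPKM with circRNA, 1.88 (SE 0.13, limma adjusted p = 8.00e-07), with no overlap. The class I light chain B2m (1.61), the heavy chain H2-K1 (1.54) and the class I transactivator Nlrc5 (1.53) rose with it, and 18 of 20 members passed as higher (90%, against 17.8% of all genes, median 0.94), although reads of the near-identical heavy chains, such as H2-Q6 (1.82), may be split between copies. In class II 8 of 9 rose (88.9%, against the same 17.8%). Cd74, the invariant chain (chromosome 18, 60803848 to 60812652, plus strand), was at 60.1, 63.0 and 51.8 FPKM in wild type and at 239, 454, 290.1 and 460.3 FPKM with circRNA, 2.56 (SE 0.27, limma adjusted p = 2.86e-05). The class II chains H2-Aa (2.01), H2-Ab1 (1.99) and H2-Eb1 (1.47) followed it, and H2-DMb2 (-0.20) was within 1.5-fold.

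Interferon-stimulated genes were higher in most cases. 30 of 39 rose (76.9%, against 17.8% of all genes) and 1 fell (2.56%, against 8.05%), with a median of 0.71. Oas1a, a sensor of double-stranded RNA (chromosome 5, 120896256 to 120907521, minus strand), was at 1.76, 1.49 and 1.43 FPKM in wild type, at 5.61 and 4.70 FPKM in 5xFAD with EGFP and at 6.001, 6.95, 8.83 and 8.05 FPKM with circRNA. The circRNA libraries were the highest and did not overlap either group, 1.71 (SE 0.13, limma adjusted p = 2.08e-06) against wild type. Isg15, a ubiquitin-like modifier, was at 1.90, 1.64 and 2.62 FPKM in wild type, 3.04 and 2.25 FPKM in 5xFAD with EGFP and 3.18, 4.10, 5.51 and 3.70 FPKM with circRNA, 0.74 (SE 0.14, limma adjusted p = 0.00237) against wild type. Ifit3 (1.17), Zbp1 (1.49), a sensor of left-handed nucleic acids, Ifi27l2a (2.83) and Lgals3bp (2.39) rose too. Ifi204 was at 1.78 and has near-identical relatives. The guanylate-binding proteins split, since Gbp7 fell (-0.72), Gbp3 was at -0.07 and within 1.5-fold, and Gbp2 rose in the full set (0.87) but had adjusted p-values in limma of 0.0712 without wild type replicate 2 and 0.052 without circRNA replicate 3. The RNA helicase Ddx58 (0.13), known as RIG-I, was within 1.5-fold.

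Against the same wild type libraries, 12 of the 39 interferon-stimulated genes were higher in 5xFAD with EGFP (30.8%, against 7.65% of all genes) and 2 lower, against 6.35% of all genes, with a median of 0.37. The direct comparison of circRNA with EGFP in 5xFAD is the test of that difference. No gene passed it in limma (0%), the smallest adjusted p was 0.739, and 523 genes (4.83%) were under 0.05 unadjusted. With voom on recovered counts no gene passed and 273 were under 0.05 unadjusted, and with a covariate for markers of other cell types 3 genes passed, all lower. All 39 of the tested interferon-stimulated genes lay above 0 in it, as did 77.7% of all genes, with a median of 0.31 against 0.08 for all genes, and 14 were under 0.05 unadjusted. Oas1a differed there by 0.45 (95% interval 0.13 to 0.77, limma adjusted p = 0.739) and Isg15 by 0.48 (95% interval 0.13 to 0.83, limma adjusted p = 0.739).

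The promoters of 3 genes that rose are shown because they carry the letters of an interferon response element, and that of Ctsd because it carries those of the lysosomal CLEAR element. The sequences are the 250 bases before the start of each gene in RefSeq (GRCm38.p6), with the matched letters in capitals. For Ctsd the RefSeq start lies inside the gene span given above, which comes from GENCODE, and the match lies inside that span too.
Isg15 (chr4:156200819-156201068, minus strand): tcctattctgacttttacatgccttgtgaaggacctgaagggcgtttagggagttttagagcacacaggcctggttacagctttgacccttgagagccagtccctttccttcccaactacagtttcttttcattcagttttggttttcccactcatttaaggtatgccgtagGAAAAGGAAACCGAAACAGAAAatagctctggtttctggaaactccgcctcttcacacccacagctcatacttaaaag
Ifit3 (chr19:34583279-34583528, plus strand): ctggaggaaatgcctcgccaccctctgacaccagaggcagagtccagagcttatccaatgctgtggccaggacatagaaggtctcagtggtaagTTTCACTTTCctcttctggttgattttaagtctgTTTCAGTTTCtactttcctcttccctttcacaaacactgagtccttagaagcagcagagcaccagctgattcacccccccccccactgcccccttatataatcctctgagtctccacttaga
B2m (chr2:122147437-122147686, plus strand): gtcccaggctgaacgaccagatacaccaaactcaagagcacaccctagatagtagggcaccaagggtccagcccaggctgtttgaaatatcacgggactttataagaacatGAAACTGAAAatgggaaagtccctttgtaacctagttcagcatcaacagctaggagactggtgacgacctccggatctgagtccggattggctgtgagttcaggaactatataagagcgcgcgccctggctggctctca
Ctsd (chr7:142387828-142388077, minus strand): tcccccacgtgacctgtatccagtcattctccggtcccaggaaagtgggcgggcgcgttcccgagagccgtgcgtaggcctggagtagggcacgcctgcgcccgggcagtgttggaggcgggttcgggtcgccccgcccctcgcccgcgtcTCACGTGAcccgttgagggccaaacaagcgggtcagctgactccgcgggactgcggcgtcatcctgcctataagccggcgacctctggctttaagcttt
The interferon motif searched was GAAANNGAAA on both strands, with overlapping matches counted, and in Ifit3 it lies on the opposite strand. It was found before 3.46% of 27025 genes in RefSeq, before 14 of the 31 interferon-stimulated genes that had a promoter in the table (45.2%) and before 3 of 18 class I genes. Of the interferon-stimulated genes tested, 9 of 12 with the motif and 11 of 16 without it were higher than wild type. The CLEAR motif searched was TCACGTGA, found before 0.907% of all genes, before 2 of 9 cathepsins (Ctsa and Ctsd) and before 2 of 26 lysosomal hydrolases and membrane proteins (Gla and Mcoln1). A match is a description of the letters and not a site of binding.

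**Figure D3:**
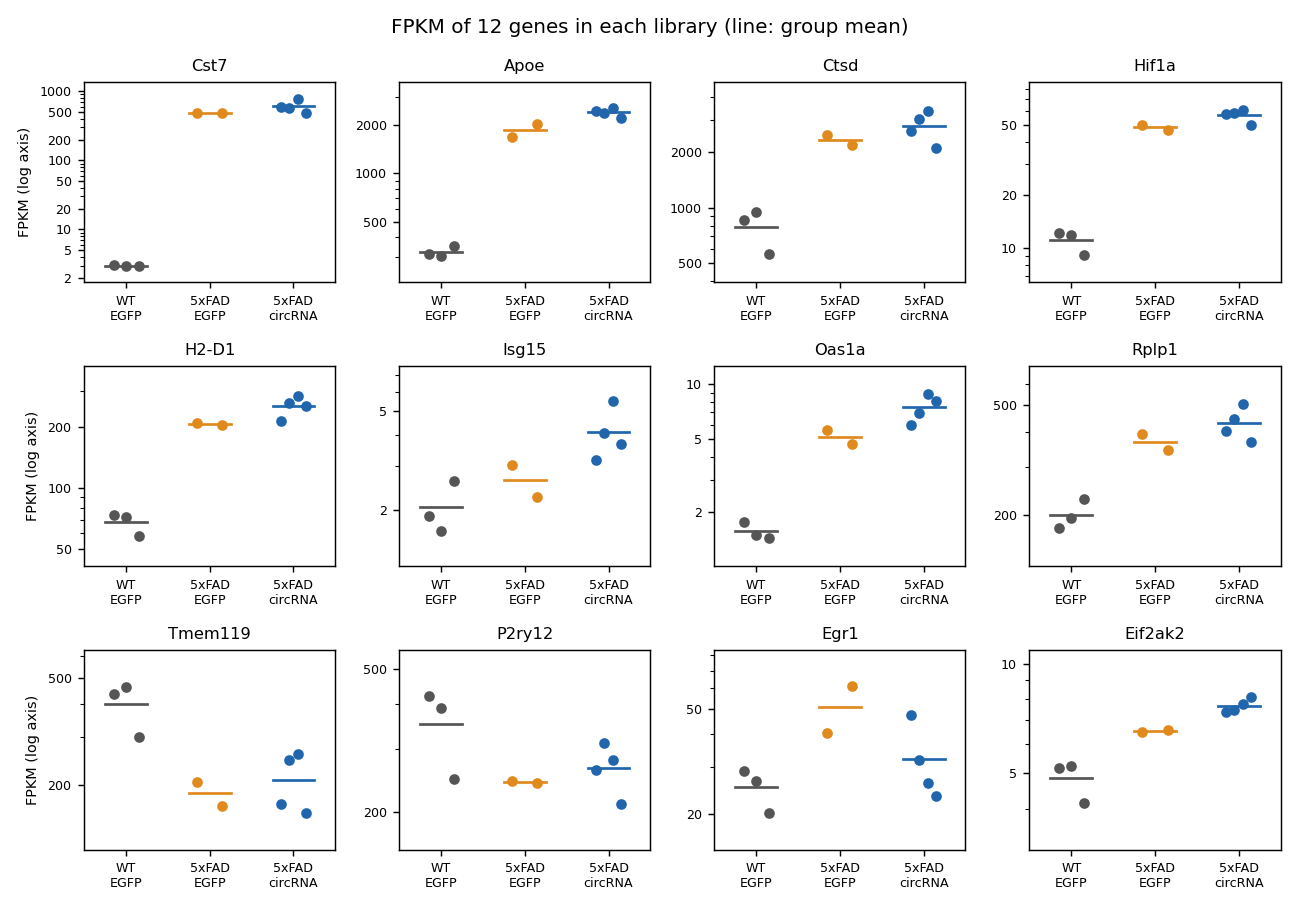
FPKM (log axis) of 12 genes in each library of wild type with EGFP, 5xFAD with EGFP and 5xFAD with circRNA, with a line at each group mean. For Cst7, Apoe, Ctsd, Hif1a, H2-D1, Oas1a, Rplp1 and Eif2ak2 the 4 circRNA libraries lie above the 3 wild type libraries without overlap, and for P2ry12 and Egr1 they overlap.

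Several chemokine genes were higher than wild type. Ccl3, an inflammatory chemokine, was at 62.7, 54.0 and 29.1 FPKM in wild type and at 246, 254, 223 and 170.0 FPKM with circRNA, 2.23 (SE 0.25, limma adjusted p = 4.68e-05). Ccl4 (1.89), Cxcl16 (1.49), the receptor Cxcr4 (1.54) and the decoy receptor Ccrl2 (1.25) also rose. Ccl2 (0.02), which attracts monocytes, and Cxcl2 (0.06), which attracts neutrophils, were within 1.5-fold in the main fit. With the pseudocount of 0.1, with voom or without wild type replicate 1 or 2, 0 members of the list were within 1.5-fold. Of the list 7 of 13 rose (53.8%, against 17.8% of all genes) and 1 fell (7.69%, against 8.05%). With EGFP 6 were higher than wild type (46.2%, against 7.65% of all genes) and 1 lower.

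Inflammatory cytokine genes were raised at a few points. Il1b (1.28) and Tnf (1.09) rose, and of the interleukin-1, inflammasome and TNF list 6 of 18 were higher (33.3%, against 17.8% of all genes), 1 lower (5.56%, against 8.05%) and 9 within 1.5-fold (50%, against 70.9%, median 0.13). These counts became 5 higher and 4 lower without wild type replicate 3. The ligand Il1a (0.09), the receptor chain Il1rap (0.08) and the DNA sensor Aim2 (0.10) were within 1.5-fold. Among the NF-kappaB genes the inducible inhibitors Nfkbiz (0.98) and Tnfaip3 (0.86) rose, and the subunit Rel (-0.09) and the kinase components Ikbkb (0.03) and Ikbkg (0.01) were within 1.5-fold, as were 11 of 16 members, a share (68.8%) near that of all genes. Of the 16 NF-kappaB genes 6 were higher (37.5%, against 17.8% of all genes) and 0 lower. Under rescaling 2 were higher and 4 lower, and with voom 3 and 1. Of the 16 genes tested in the Toll-like receptor list, 5 rose (31.25%, against 17.8% of all genes) and 1 fell (6.25%, against 8.05%). Tlr2 (1.53), the co-receptors Cd14 (1.21) and Cd180 (1.21) and the CD180 partner Ly86 (1.06) rose, and Tlr5, the flagellin receptor, fell (-0.55), whereas the RNA sensor Tlr7 (0.14) and Unc93b1 (-0.12), which carries the nucleic acid receptors to the endosome, were within 1.5-fold.

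Phagocyte effector genes rose in part. Cybb, the catalytic subunit of the NADPH oxidase, rose (1.98), and so did its partner Cyba (0.86) and the proton channel Hvcn1 (0.84), whereas the cytosolic regulators Ncf1 (-0.06) and Ncf4 (-0.12) were within 1.5-fold. The Fc gamma receptors Fcgr4 (0.95) and Fcgr2b (0.79) and the signalling chain Fcer1g (0.94) rose, 3 of the 5 tested (60%, against 17.8% of all genes). This count was 2 with quantile normalization or with the spread of these groups alone, and 4 with median-ratio scaling. With EGFP 0 of the 5 were higher than wild type. Of the complement genes 7 of 12 rose (58.3%, against 17.8% of all genes) and 2 fell (16.7%, against 8.05%), led by the receptor C3ar1 (1.05), whereas C5ar1 (0.12) and Itgam (0.19), a chain of complement receptor 3, were within 1.5-fold. C4b was at 0.91, and its reads may be shared with C4a. The complement count changed with the scaling, to 3 higher and 2 lower under quantile normalization and 3 and 2 under rescaling, and was 4 higher without wild type replicate 3, circRNA replicate 2 or circRNA replicate 3. Of the scavenger and TAM receptors 3 of 14 rose (21.4%, near the 17.8% of all genes), Cd300lf (1.41), Itgb3 (0.83) and Scarb1 (0.76), whereas Mertk (-0.13) and its ligand Gas6 (0.15) were within 1.5-fold. In the iron list the ferritin light chain Ftl1 (1.21) and the endosomal transporter Slc11a1 (1.00) rose, the iron exporter Slc40a1 fell (-0.91), and the iron sensors Aco1 (0.05) and Ireb2 (-0.05) were within 1.5-fold.

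Several proliferation genes rose by small amounts. Of the 31 genes of the cell cycle list 15 were abundant enough to test, and of these 9 rose (60%, against 17.8% of all genes, median 0.31), with Mki67 (0.88), Mcm5 (0.68) and Pcna (0.61), and also the cell cycle inhibitor Cdkn1a (0.66), and the cyclin Ccnd2 was lower (-0.50) but did not pass without wild type replicate 1 or 3 or circRNA replicate 2 or 4. With the minimum of 5 FPKM 3 were higher, and with no minimum 20 were. Ccnd1 (0.23) and Cdkn1b (-0.14) were within 1.5-fold.

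**Figure D4:**
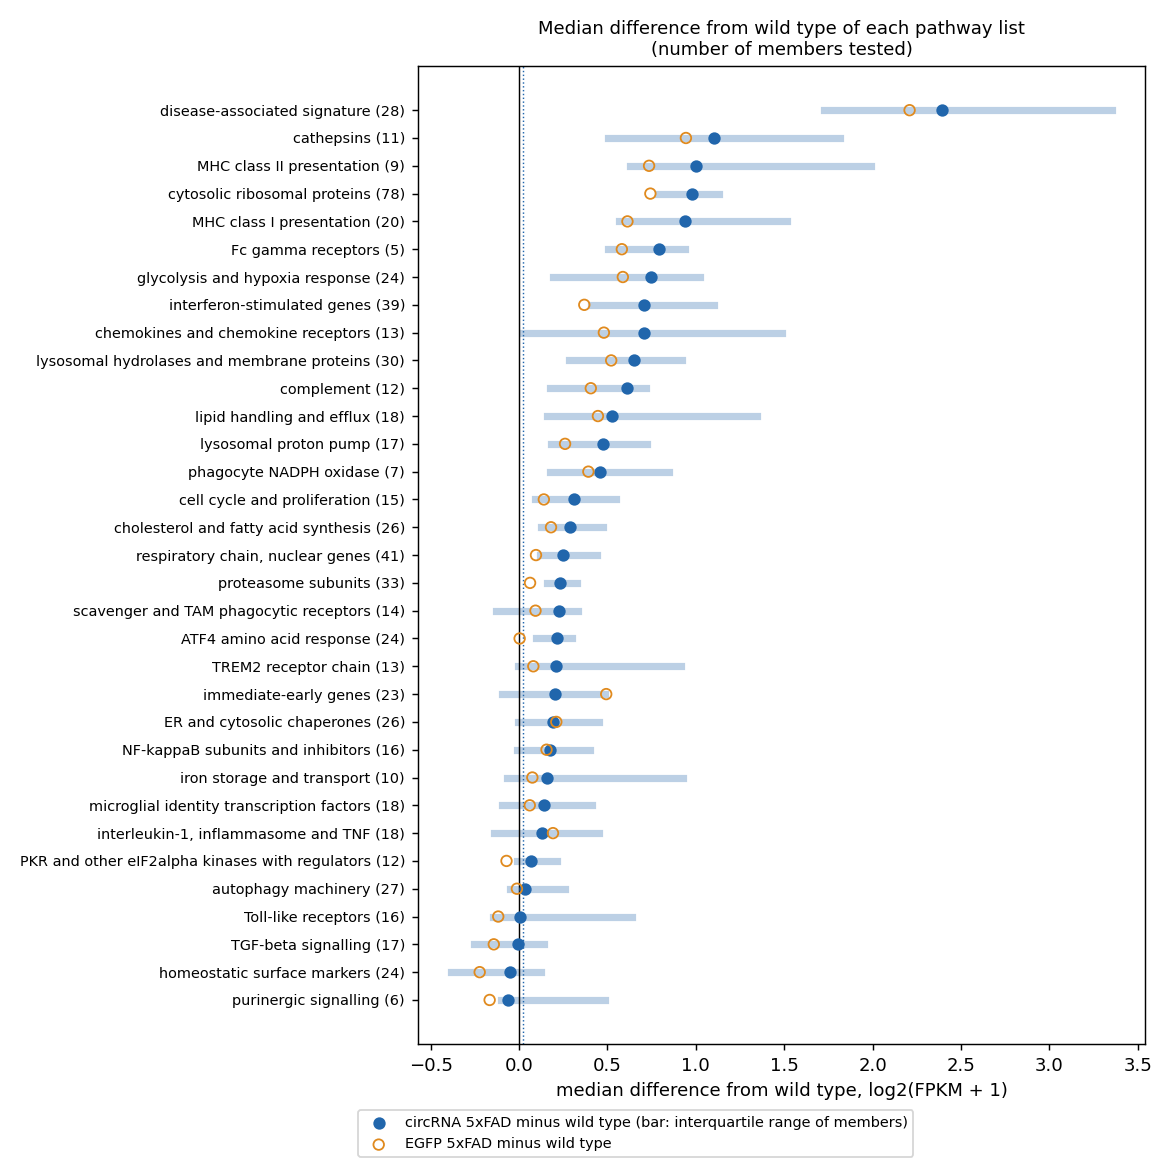
Median difference from wild type, log2(FPKM + 1), over the tested members of each of 33 pathway lists, for 5xFAD with circRNA (filled, with the interquartile range of the members as a bar) and 5xFAD with EGFP (open), both against the same 3 wild type libraries, with a dotted line at the median of all genes for circRNA. The disease-associated signature has the highest medians, 2.39 and 2.21, and the immediate-early genes have the widest gap with EGFP above circRNA, 0.49 against 0.20.

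Among the eIF2alpha kinase genes that of PKR was higher and those of PERK and GCN2 were within 1.5-fold of wild type. Eif2ak2 (chromosome 17, 78852564 to 78882573, minus strand) was at 5.18, 5.23 and 4.14 FPKM in wild type, at 6.49 and 6.59 FPKM in 5xFAD with EGFP and at 7.37, 7.48, 7.73 and 8.11 FPKM with circRNA. All 4 circRNA libraries lay above the others, 0.57 (SE 0.10, limma adjusted p = 0.00118) against wild type and 0.20 (95% interval -0.04 to 0.45, limma adjusted p = 0.739) against EGFP. These are levels of the message and give no measure of kinase activity. Eif2ak3 (0.00), the kinase PERK of the endoplasmic reticulum, Eif2ak4 (0.00), the kinase GCN2 of amino acid shortage, and the phosphatase regulator Ppp1r15b (0.01) were within 1.5-fold, as were 11 of the 12 members tested (91.7%, against 70.9% of all genes). Of the ATF4 target genes 6 of 24 were higher (25%, against 17.8% of all genes) and 16 within 1.5-fold (66.7%). Those that rose were led by the serine synthesis enzyme Psat1 (1.57), Mthfd2 (0.96) and the tRNA synthetases Sars (0.65) and Eprs (0.60), and Phgdh (-0.08), the first enzyme of serine synthesis, and Sesn2 (0.02) were within 1.5-fold. Among the chaperones 6 of 26 rose (23.1%, near the 17.8% of all genes), led by Sdf2l1 (1.56) of the endoplasmic reticulum and Hspe1 (0.87) of mitochondria, and Ern1 (0.02) and Dnajb9 (-0.01) of the unfolded protein response were within 1.5-fold. Under rescaling 2 chaperone genes were higher and 3 lower.

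Autophagy and proteasome genes differed from wild type by small amounts. Of the autophagy machinery 22 of 27 were within 1.5-fold (81.5%, against 70.9% of all genes, median 0.03), and 6 rose (22.2%, against 17.8%), with the receptors Optn (1.01) and Sqstm1 (0.52) and the conjugation genes Gabarap (0.71) and Atg7 (0.45). Wipi1 (0.03), Uvrag (-0.02) and Atg13 (-0.02), of the early steps, did not pass. Of the proteasome subunits 25 of 33 were within 1.5-fold (75.8%) and 15 passed as higher (45.5%, against 17.8% of all genes), with a median of 0.23. The interferon-inducible activator subunits Psme1 (0.89) and Psme2 (0.59) and the catalytic subunit Psmb6 (0.67) rose, and Psma3 (-0.04) and Psmd3 (0.05) did not pass. Under rescaling 4 autophagy genes were higher and 15 lower, and the proteasome subunits lost their direction, with 4 higher and 4 lower, and with voom 7 were higher. Under rescaling 25 autophagy genes and 31 proteasome subunits were within 1.5-fold.

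Homeostatic genes did not behave as 1 group. Tmem119, a surface protein of resting microglia (chromosome 5, 113793729 to 113800516, minus strand), was at 434, 461 and 300.0 FPKM in wild type and at 169.8, 248, 260.3 and 158 FPKM with circRNA, -0.94 (SE 0.23, limma adjusted p = 0.0111). The groups did not overlap, and Crybb1 (-1.58) and Ecscr (-0.89) fell as well. P2ry12, the ADP receptor of microglial processes, was at 421, 389 and 248 FPKM in wild type and at 261, 312, 279 and 211 FPKM with circRNA, -0.38 (SE 0.19, limma adjusted p = 0.162), and the groups overlapped at wild type replicate 3. Cx3cr1, the receptor for the neuronal chemokine CX3CL1, was at 452, 454 and 300.0 FPKM in wild type and at 331, 401, 429.8 and 292 FPKM with circRNA, -0.14 (SE 0.18, limma adjusted p = 0.635), and the groups overlapped. Csf1r (-0.02), the receptor on which microglia depend for survival, Hpgds (0.02) and Sparc (-0.02) were within 1.5-fold, and Gpr84, a receptor for fatty acids, rose (0.96). Of the list 4 of 24 fell (16.7%, against 8.05% of all genes), 3 rose (12.5%, against 17.8%) and 10 were within 1.5-fold (41.7%, against 70.9%). This count depended on the setting and on wild type replicate 3, the wild type library with the lowest microglial markers. With that library kept, 9 fell and 2 rose with the marker covariate or with arrayWeights. Without wild type replicate 3, 9 fell and 2 rose as well, and the differences were -0.62 for P2ry12 (limma adjusted p = 0.0119), -0.33 for Cx3cr1 (limma adjusted p = 0.157) and -1.13 for Tmem119.

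Transcription factors of microglial identity and genes of the TGF-beta pathway that maintains it were within 1.5-fold of wild type no more often than genes in general. Sall3 (0.03), Cebpb (0.01) and Smad3 (-0.03) were within 1.5-fold, as were 10 of 18 factors (55.6%, against 70.9% of all genes). Bhlhe40 (1.49) and Bhlhe41 (0.83), repressors linked to the lysosomal programme, and the interferon regulatory factor Irf8 (0.73) rose, 3 of the 5 that did. Those 5 were 27.8% of the 18 factors, against 17.8% of all genes. Maf (-0.62) and Mef2a (-0.34) were the 2 lower ones (11.1%, against 8.05% of all genes). Neither passed without wild type replicate 1 or 2, nor did Mef2a without circRNA replicate 1, 3 or 4. With wild type replicate 3 left out, the factors split into 3 higher and 3 lower. In the TGF-beta list 11 of 17 (64.7%) were within 1.5-fold, including Smad2 (-0.01), Smad4 (-0.09) and the inhibitor Smad7 (0.02), whereas the receptor Tgfbr2 (0.92) and the corepressor Tgif1 (0.73) rose. These 2 were 11.8% of the list, against 17.8% of all genes. The 3 members that fell (17.6%, against 8.05% of all genes) were Tgfbr3 (-0.66), Tgfb2 (-0.60) and Itgav (-0.28). All 3 lost their call without wild type replicate 1 or circRNA replicate 1, and 1 kept it without circRNA replicate 2. Of the purinergic genes P2rx4 rose (0.66), P2ry6 (-0.03), Entpd1 (-0.09) and Adora3 (-0.11) were within 1.5-fold, and Adora1 passed (0.67) in the full set but not without wild type replicate 1 or 2 or circRNA replicate 1, 3 or 4.

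Immediate-early genes, which answer a stimulus within minutes and without new protein, had a smaller median difference from wild type with circRNA than with EGFP, although the difference between the treatments did not pass for any of them. In 5xFAD with EGFP 8 of 23 were higher than wild type (34.8%, against 7.65% of all genes), with a median of 0.49 against -0.03 for all genes. With circRNA 4 were higher (17.4%, near the 17.8% of all genes) and 2 lower, with a median of 0.20. The higher count was 7 with a replicate block and 6 with the minimum of 5 FPKM. Both sets of differences use the same wild type libraries. Egr1, a zinc finger factor induced by growth and activity signals (chromosome 18, 34859823 to 34864984, plus strand), was at 29.0, 26.6 and 20.0 FPKM in wild type, 40.4 and 61.0 FPKM in 5xFAD with EGFP and 47.4, 31.9, 26.2 and 23.2 FPKM with circRNA. The EGFP libraries lay above wild type, 0.97 (SE 0.28, limma adjusted p = 0.0347), whereas with circRNA replicates 1 and 2 lay above the wild type range and replicates 3 and 4 inside it, 0.30 (SE 0.23, limma adjusted p = 0.375). Zfp36, which destabilises cytokine messages, was at 92.2, 68.6 and 45.3 FPKM in wild type, 111 and 129 FPKM in 5xFAD with EGFP and 109, 101, 76.9 and 73.4 FPKM with circRNA. Against wild type Zfp36 differed by 0.85 (SE 0.26, limma adjusted p = 0.0496) with EGFP and by 0.42 (SE 0.22, limma adjusted p = 0.185) with circRNA.

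Other members differed in the same way or remained raised. Dusp1, a MAP kinase phosphatase, was at 1.00 with EGFP and 0.62 with circRNA, and the AP-1 genes Fosb (0.84 and 0.03), Fos (0.50 and -0.10) and Jun (0.49 and 0.12) were likewise nearer to wild type with circRNA. Of these 4 genes only Dusp1 passed with EGFP and none passed with circRNA. Fosb was within 1.5-fold of wild type with circRNA. Egr2 (1.65), Maff (1.60) and Atf3 (1.16) remained raised with circRNA, and the orphan receptor Nr4a1 (-0.72) and Fosl2 (-0.50) were lower than wild type. Ier2 passed (0.56) but not without wild type replicate 2 or 3 or circRNA replicate 1, 2 or 3. In the direct comparison 22 of 23 members lay below 0, against 22.3% of all genes, with a median of -0.28 against 0.08 for all genes, 4 were under 0.05 unadjusted and none passed. Egr1 differed there by -0.66 (95% interval -1.23 to -0.09, limma adjusted p = 0.739) and Fosb by -0.81 (95% interval -1.43 to -0.19, limma adjusted p = 0.739). The wild type level itself varied, since replicate 1 held the highest Fos, Fosb and Dusp1 of the 3, and without it 8 members were higher with circRNA and 2 lower. Within the circRNA group replicate 1 was the highest for Egr1, Fosb and Dusp1.

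**Figure D5:**
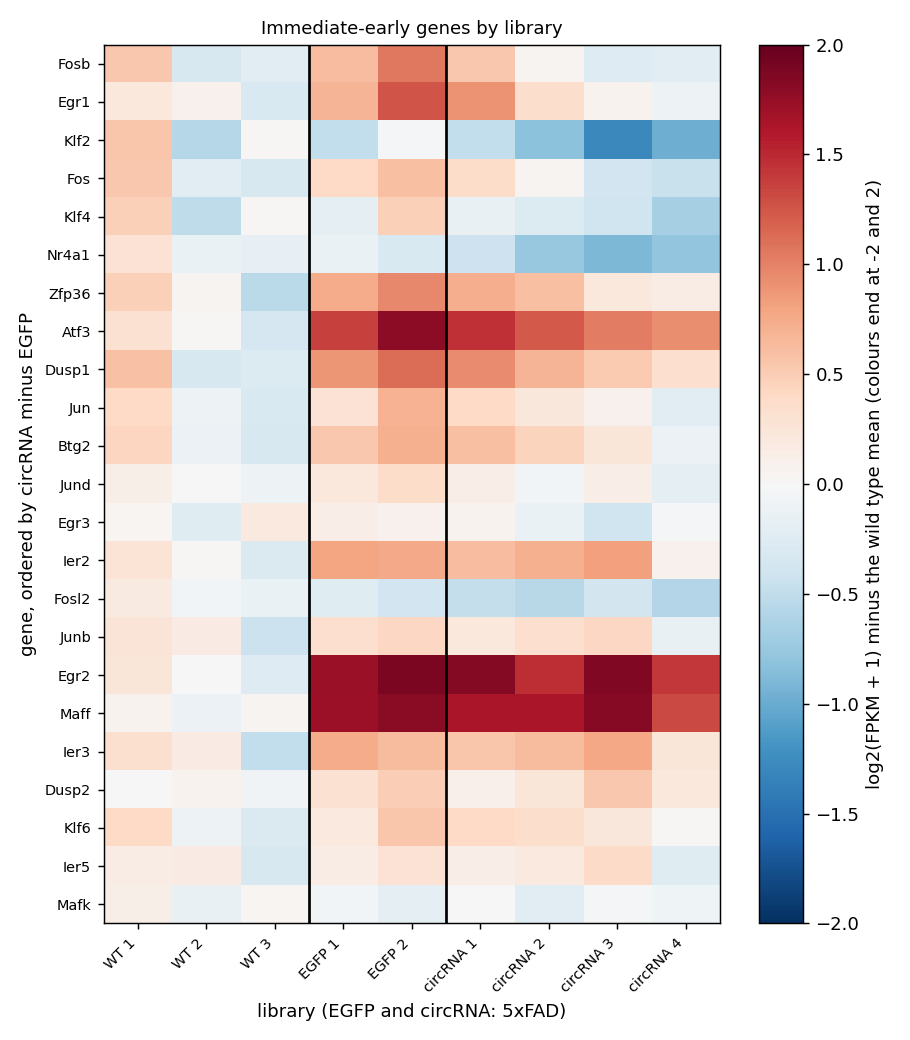
Heat map of the 23 tested immediate-early genes (rows, ordered by circRNA minus EGFP) in 9 libraries (columns), coloured by log2(FPKM + 1) minus the wild type mean, with colours ending at -2 and 2. Egr2, Maff and Atf3 are high in all 6 of the 5xFAD libraries, and Egr1 and Fosb are high in the EGFP libraries and in circRNA replicate 1.

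Genes were also taken 1 by 1. Of the 246 genes raised at least 2-fold in 5xFAD with EGFP (2.27% of those tested), all 246 had circRNA libraries above the wild type range. Among all genes, 28.2% had circRNA and wild type libraries without overlap. None of the 246 was within 1.5-fold of wild type, against 70.9% of all genes. The medians of the 246 were 1.38 with EGFP and 1.53 with circRNA. Of the 176 genes lowered at least 2-fold (1.63%), the circRNA libraries overlapped the wild type range for 75, 159 passed as different from wild type with circRNA and none was within 1.5-fold. The medians of these 176 were -1.20 with EGFP and -0.93 with circRNA. In the direct comparison of circRNA with EGFP the medians were 0.17 for the raised and 0.32 for the lowered genes, against 0.08 for all genes. Both sets were chosen by the EGFP libraries against the same wild type libraries. Part of the difference between the medians therefore follows from the choice, as does part of the distance of both sets from wild type. Among the 75 lowered genes that overlapped, those nearest to wild type with circRNA were Ptprg (-0.58), a receptor phosphatase, Cgnl1 (-0.58), a tight junction protein, and Gm20532 (-0.60). None of these passed. Next came Tgfb2 (-0.60), Gsta4 (-0.69) and Kank3 (-0.69), which passed. Cgnl1 was at 8.09, 5.25 and 6.59 FPKM in wild type, 2.63 and 2.20 FPKM in 5xFAD with EGFP and 3.70, 2.26, 4.29 and 7.02 FPKM with circRNA, with circRNA replicate 4 inside the wild type range and replicate 2 at the EGFP level. Kank3 was at 7.98, 4.65 and 10.3 FPKM in wild type, 3.12 and 3.07 FPKM in 5xFAD with EGFP and 3.60, 3.28, 5.38 and 4.57 FPKM with circRNA.

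Of these 75 genes, 7 are among the markers of vascular and mural cells. The summed vascular markers were at 269.7, 149 and 329 FPKM in wild type, 94.6 and 58.6 FPKM in 5xFAD with EGFP and 102, 84.5, 162 and 121 FPKM with circRNA, so circRNA replicate 3 overlapped wild type replicate 2. Of 14 tested vascular markers 8 were lower than wild type with circRNA, against 8.05% of all genes, a count that was 4 without wild type replicate 3, 5 without wild type replicate 1, 14 without wild type replicate 2 and 13 with median-ratio scaling or voom. With EGFP 13 were lower, against 6.35% of all genes. Rgs5 was at 35.0, 15.8 and 35.0 FPKM in wild type and at 10.5, 8.79, 11.3 and 10.4 FPKM with circRNA, -1.32 (SE 0.26, limma adjusted p = 0.00266). Markers of border macrophages, which live at the meninges and vessels, were lower in 6 of 6 with circRNA and 6 of 6 with EGFP, with Cd163 at -1.08 and Mrc1 at -1.01 with circRNA. Ependymal markers, chosen after their values were seen, were lower in 5 of 5 with circRNA, at 22.1, 22.8 and 60.9 FPKM in wild type and 8.07, 3.96, 9.91 and 19.2 FPKM with circRNA, but in 3 of 5 without wild type replicate 3, which held the most, or without circRNA replicate 1 or 2. Choroid plexus markers were at 2899.9, 2229 and 1130.2 FPKM in wild type and 1047, 389, 1099 and 2439.7 FPKM with circRNA, where circRNA replicate 4 lay inside the wild type range. In these bulk samples fewer cells of a type and less RNA per cell cannot be told apart, and the part of other cell types in the lowered genes was not tested.

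Counts of several lists depended on the setting. With quantile normalization 16 homeostatic genes were lower and 1 higher, and with rescaling 13 and 2. TGF-beta genes that were lower numbered 8 with quantile normalization, 9 with rescaling and 6 with voom. Rescaling made 6 of the eIF2alpha kinase list and 7 of the Toll-like receptor list lower, and quantile normalization made 5 of the interleukin-1, inflammasome and TNF list and 5 of the TREM2 receptor chain lower. With the spread of these groups alone fewer members were higher, 7 of the proteasome, 6 of the respiratory chain, 3 identity factors, 2 complement genes, 2 iron genes and 2 NADPH oxidase genes. With wild type replicate 3 left out, 3 Toll-like receptor genes and 3 of the TREM2 receptor chain were lower, against 1 and 1 with it, and 3 iron genes were higher without wild type replicate 1, against 5 with it. The number of higher members did not change by over 1.5 times in the disease-associated signature, the cathepsins, the hydrolases, the proton pump, the glycolysis list, the ribosomal proteins or either MHC class under the alternatives run. Counts within 1.5-fold of wild type moved too. With the pseudocount of 0.1 the share of all genes fell from 70.9% to 61.2%. There, cholesterol and fatty acid synthesis fell from 11 to 4 and interferon-stimulated genes from 7 to 3. Purinergic genes within 1.5-fold fell from 4 to 0 with arrayWeights, with rescaling or without wild type replicate 3.

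The precision of the direct comparison sets what can be said about treatment. For 9113 genes (84.2%) the 95% interval of circRNA against EGFP lay within 1.5-fold, and the median interval reached 0.24 to either side, with 2 EGFP libraries in the comparison. Cst7 differed by 0.30 (95% interval -0.05 to 0.65, limma adjusted p = 0.739), Trem2 by 0.28 (95% interval -0.19 to 0.75, limma adjusted p = 0.743) and Tmem119 by 0.14 (95% interval -0.44 to 0.71, limma adjusted p = 0.858). A return of the 5xFAD EGFP level to the wild type mean would need a change of the opposite sign to 6.93 for Cst7, 1.15 for Trem2 and -1.07 for Tmem119, and each of these lies outside the interval of that gene. For Egr1 the same change, opposite to 0.97, lies inside its interval.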

How the data were processed

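RNA of microglia was sequenced after ribosomal RNA depletion with a stranded kit, per the labels' protocols. The authors deposited 1 table of FPKM values, 19737 genes in 13 libraries, not pooled. The submitters' processing notes name mm10, Bowtie2 2.3.5, HISAT2 2.1.0 and featureCounts 1.5.1. The annotation and the strand setting of the counting are not given in the sources used here. FPKM divides by library totals, so a large change in abundant genes moves the others.

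Gene positions and exon lengths were taken from GENCODE M21 (GRCm38), which named 19418 genes. Values below 0.3 FPKM were whole multiples of 1 counted unit in 96.2% of cases within 0.02, against 4% by chance, which gave depths of 90.4 to 140 M (mega) units per library. Whether a unit is a read or a fragment is not known. Intervals cover the spread between libraries.

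The test on log2(FPKM + 1) was limma's (limma 3.58.1, R 4.3.3), over the 10817 genes that averaged 1 FPKM or more. All 13 libraries entered, with a mean for each of 4 groups, leaving 9 residual degrees of freedom, and eBayes with a trend and Benjamini-Hochberg adjustment at 0.05 within each comparison. On simulated data for the circRNA comparison (10817 genes, 200 changed), 66.5% were recovered at 0.5 and 90.5% at 1 log2 unit. Replicate numbers shared between groups were not paired by the labels and were tried as a block. Alternatives were the pseudocount (0.1), the minimum (5 or none), quantile, median-ratio and equal-sum scaling, the groups alone, arrayWeights, a marker covariate, voom on recovered counts, a length correction and leaving out each library.

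Named genes were the 10 raised and 10 lowered most without overlap between groups, up to 4 that passed and up to 3 nearest to wild type within 1.5-fold from each list, up to 6 per direction that changed 2-fold with EGFP but overlapped wild type with circRNA, and a fixed panel (Eif2ak2, Apoe, Trem2, Cst7, Spp1, Tmem119, P2ry12, Cx3cr1). Others were added after their values were seen, as were the ependymal and choroid plexus markers. Members and lists were chosen with earlier results of these data known. Some genes are not reported here.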

Additional observations from a re-analysis of the deposited data

Results flagged for a closer look

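Among groups of 4 circRNA libraries, the gap between the outermost library and its neighbour divided by the range of the group was above Dixon's 95% critical value for 14 of 255 genes and list scores examined. Chance marks about 1 in 20 such groups, and no explanation was tested. With FPKM divided by the median-ratio factor of each library, an alternative chosen after seeing the data, 5 of the 14 were still above that value, namely Bhlhe40 (0.847), Gas6 (0.904), Phgdh (0.882), Cd209a (0.851) and the ATF4 score (0.976).

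CircRNA replicate 3 was the outermost library in 9 of the 14 and the highest in each, and it also had the largest FPKM sum of its group (170775 against 148551 to 156281) and a median-ratio factor of 1.128 against 1.018 to 1.023. The mean log2(FPKM + 1) of the ATF4 amino acid response was 2.96, 2.96, 3.34 and 2.95 in replicates 1 to 4 (gap 0.97), that of glycolysis and hypoxia response was 4.11, 4.11, 4.37 and 4.06 (gap 0.835) and that of TGF-beta signalling was 3.90, 3.90, 4.03 and 3.91 (gap 0.858). Replicate 3 was also the highest for Mthfd2 (2.62, 2.37, 4.90 and 2.69 FPKM, gap 0.836) and Phgdh (16.9, 17.7, 29.2 and 16.7 FPKM, gap 0.895), both of serine and folate metabolism. It was the highest for Bhlhe40 (11.4, 11.2, 13.7 and 11.2 FPKM, gap 0.9), Gas6 (55.1, 55.8, 84.0 and 56.6 FPKM, gap 0.938), Gpnmb (28.8, 31.0, 47.5 and 29.5 FPKM, gap 0.849) and Psmd3 (8.93, 9.06, 10.5 and 8.85 FPKM, gap 0.862). Without it, 5 ATF4 genes were higher than wild type, against 6 with it.

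CircRNA replicate 2, the library with the lowest neuron and choroid plexus markers of its group, was the lowest for Nnat (8.41, 2.86, 8.97 and 9.96 FPKM, gap 0.853), for Optn (4.25, 3.45, 4.14 and 4.25 FPKM, gap 0.867) and for the cholesterol and fatty acid synthesis score (2.81, 2.47, 2.82 and 2.77, gap 0.854). Replicate 4 was the lowest for Cxcl16 (20.7, 21.4, 21.5 and 16.4 FPKM, gap 0.861) and Cd209a (2.31, 2.14, 2.32 and 1.13 FPKM, gap 0.873).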

How the results depend on the processing

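The number of genes that differed between circRNA 5xFAD and wild type, 2796, became 1754 with a mean of at least 5 FPKM, where fewer genes are tested, 5676 (995 higher and 4681 lower) with every library rescaled to the same sum, and 1725 with the spread of the 2 groups alone. Leaving out 1 library gave 2171 to 2864. For 5xFAD EGFP against wild type, 1514 became 862 with the 5 FPKM minimum, 3709 when rescaled, 509 with the 2 groups alone, 2404 with the marker covariate and 566 to 1998 with 1 library left out. For circRNA against EGFP, 0 became 3 with the marker covariate and stayed 0 with 1 library left out. The cause of these changes was not tested. The higher and lower counts were 1779 and 1500 with median-ratio scaling, 1619 and 1544 with quantile normalization, 1296 and 2328 with voom and 1713 and 1543 with the length trend removed, an alternative chosen after seeing the data.

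In the fit with a replicate block, 1781 genes were higher and 897 lower with circRNA. Deviations from the group mean of same-numbered circRNA and wild type libraries correlated at -0.422, 0.69 and -0.201. With so few values, and with wild type replicate 3 apart from the others, these cannot decide whether the numbers pair libraries.

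Of 4165 recomputed values of 222 named genes, 3854 kept their direction and side of the threshold or stayed within the replicate spread, 83 lost a call, 72 gained one, 142 moved without a call and 14 gained a call in the opposite direction. The last were genes near wild type: rescaling gave Aco1 -0.20, Ctso -0.20, Eif2ak3 -0.25, Eif2ak4 -0.24, Ern1 -0.23, Ikbkb -0.20, Ikbkg -0.22, Ppp1r15b -0.26, Psmd3 -0.21 and Smad7 -0.27, and quantile normalization gave Jun -0.52, Lrp1 -0.36, Smad7 -0.26 and Vav1 -0.29. Relative to the median of all genes, no list in which most members passed changed sign. A gene of 2 kb at 1 FPKM held 181 to 211 counted units in these libraries, a counting error of 6.88% to 7.44%, so depth limits mainly genes near 1 FPKM.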
